A study of Homo sapiens with 16 samples.

Results

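NELFE knockdown in the absence of the compound HMBA was described across all genes in 4 RNA-seq libraries of HCT116, a human colorectal carcinoma cell line, out of 16 libraries in the series. The libraries numbered 1 were left out beforehand, because their profile was judged not to match their labels. Among those numbered 2, the 4 libraries were chosen by their labels. They were shCTL DMSO, shCTL EPZ-5676, shNELFE DMSO and shNELFE EPZ-5676, where shCTL is a control shRNA, shNELFE an shRNA against NELFE, DMSO the solvent and EPZ-5676 (pinometostat) an inhibitor of the histone H3 lysine methyltransferase DOT1L. Each group had 1 library, so each shNELFE library was compared with the shCTL library given the same compound. Of 60676 genes in the table, 13999 had enough counts to be tested. The labels give no dose, time or shRNA sequence. They do not say whether libraries were grown as separate cultures. Unless another fit is named, the p-values below reflect the spread of these 4 libraries alone, which can be technical. That spread was in effect shared by all genes of a given level, so the scatter of a single gene enters its p-value little. The comparison asks which mRNAs change when NELFE is depleted in cells not given HMBA (hexamethylene bisacetamide), a compound known to release active P-TEFb.

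Negative elongation factor (NELF) binds RNA polymerase II shortly after initiation and, with the factor DSIF, holds it in a pause near the promoter. The kinase complex P-TEFb phosphorylates NELF, DSIF and the polymerase, after which NELF leaves and productive elongation begins. NELFE is the subunit with an RNA recognition motif, beside NELFA, NELFB and NELFCD. Genes that answer to stress, nutrients or growth signals are classic examples of control at the pause. In bulk samples, a change in the share of cells in a given state and a change of RNA per cell cannot be told apart.

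Total counts ranged from 13428893 to 15804336 per library, so that 3 counts, taken as the floor of detection, were 0.190 to 0.223 CPM, the unit of all levels here (counts scaled to a common library size). Mitochondrial genes took 6.12% to 6.90% of counts, and Pearson's r of log2 CPM between the 4 libraries, across genes, was 0.980 to 0.988. Genes of the colon epithelium were present, with EPCAM, an epithelial adhesion molecule, at 334 to 376 CPM and the keratin gene KRT8 at 2509 to 3463 CPM. VIL1 and CDH17, which mark differentiated intestinal epithelium, had 0 to 2 counts per library. Of the leukocyte markers, CD3E was at 0 in all 4 libraries, PTPRC had 0 to 2 counts and CD14 0 to 3 counts per library, and CD68 was at 10.5 to 22.8 CPM. The sum of 7 fibroblast markers was 23.96 and 33.9 CPM in shCTL and 10.96 and 18.6 in shNELFE, nearly all of it COL1A1, and DCN, LUM and PDGFRA were at 0 in all 4 libraries. The 8 libraries numbered 1 were left out by the rule that chose the libraries. In them NELFE was lower in shNELFE than in shCTL in all 4 pairs, by unequal amounts. In CPM of unscaled totals it was 145 against 241 under DMSO, 87.8 against 90.7 under EPZ-5676, 82.1 against 137 under HMBA and 10.5 against 258 under both compounds, where the pairs described here had 20.2 against 84.9 and 24.1 against 90.1.

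The library shCTL EPZ-5676 stood apart in RNAs that lack a poly(A) tail or are trimmed at the 3′ end. The 7SK RNA gene RN7SK, the scaffold that holds P-TEFb inactive, had 4.52 CPM in shCTL DMSO and 69.8 in shCTL EPZ-5676, against 8.86 in shNELFE DMSO and 6.78 in shNELFE EPZ-5676. MALAT1, a nuclear long noncoding RNA, had 83.2 CPM in shCTL DMSO and 804 in shCTL EPZ-5676, against 97.99 in shNELFE DMSO and 109 in shNELFE EPZ-5676. Both were thus high in 1 library only and the shRNA arms overlapped. The signal recognition particle genes RN7SL1, RN7SL2 and RN7SL3 and RMRP were also highest in that library. All 6 were lower in shNELFE by the test (RN7SK adjusted p 1.05e-40, MALAT1 1.42e-73, edgeR). In a fit of the 8 libraries numbered 2 none of the 6 passed, with adjusted p of 0.064 to 0.173, and with shCTL EPZ-5676 left out of that fit the log2 value of RN7SK was 1.12 and that of MALAT1 0.27. The calls for RN7SK and MALAT1 rest on that 1 library. Beyond the fits without it given below, its part in other results was not tested.

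NELFE (ENSG00000204356, hg38 chromosome 6, 31952087 to 31959110, minus strand) was the gene with the smallest p. It stood at 85.5 CPM in shCTL DMSO and 89.99 in shCTL EPZ-5676, against 20.3 in shNELFE DMSO and 23.9 in shNELFE EPZ-5676. Both shNELFE libraries lay far below both shCTL libraries, with no overlap (log2 fold change -1.99, SE 0.087, edgeR adjusted p 9.36e-110). Its partners NELFB and NELFA did not pass the test, at log2 -0.10 and -0.047. NELFCD rose by a small amount, from 81.1 and 84.04 CPM in the shCTL libraries to 92 and 98.9 in the shNELFE libraries, without overlap (log2 fold change 0.21, SE 0.071, edgeR adjusted p 0.0210). In a fit of the 8 libraries numbered 2 its adjusted p was 0.184. From here on, where a pair of levels is given for an arm, DMSO comes first and EPZ-5676 second.

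**Figure D1:**
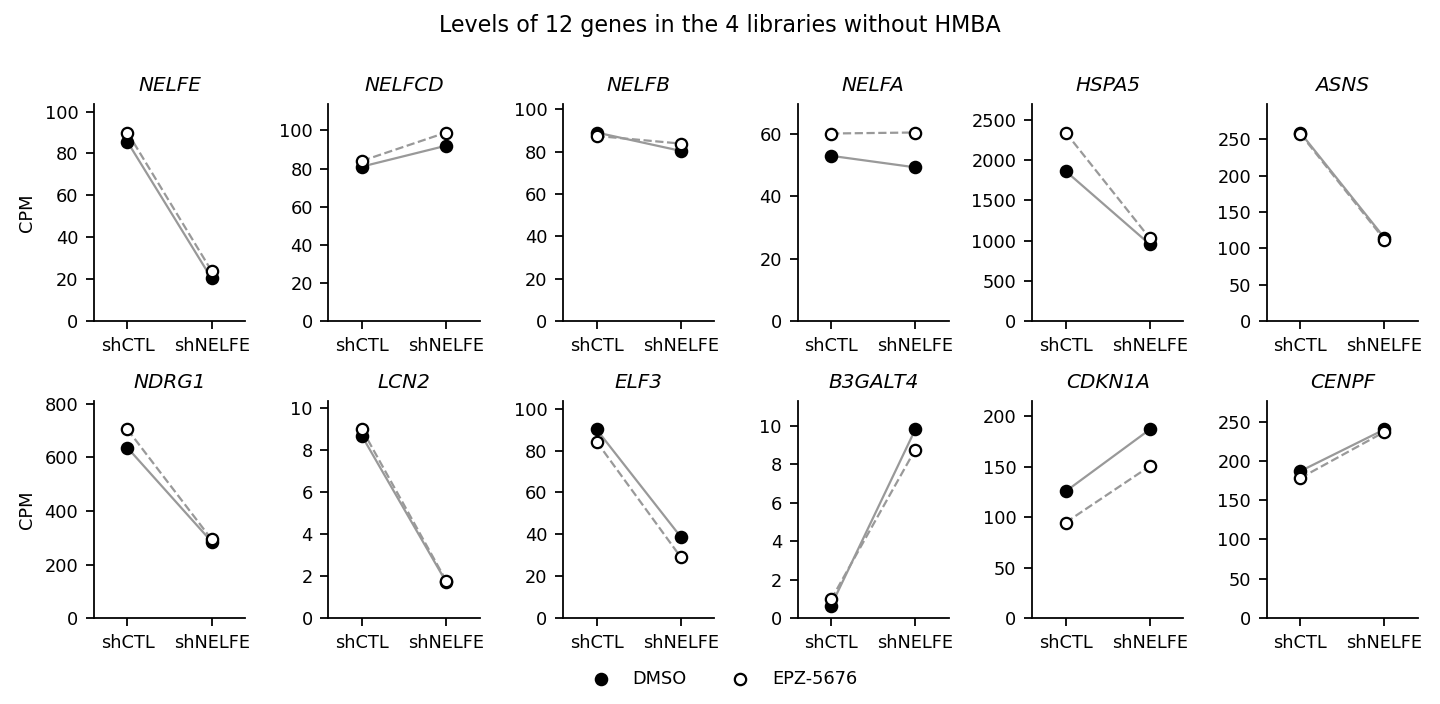
CPM of 12 genes in the 4 libraries, with shCTL on the left and shNELFE on the right of each panel, filled circles for DMSO and open circles for EPZ-5676, and lines joining libraries given the same compound. NELFE falls from 85.5 and 89.99 to 20.3 and 23.9 CPM, while NELFA, NELFB and NELFCD stay within 49.3 to 98.9 CPM.

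The fit of shRNA and EPZ-5676 terms left 1 residual degree of freedom, and the spread was in effect shared by all genes of a given level (biological coefficient of variation 0.0503). In shNELFE, 1202 genes were called higher (8.59%) and 1615 lower (11.5%) by edgeR, 2817 of the 13999 tested (20.1%). The EPZ-5676 term of the same fit called 15.3% of genes. The arms did not overlap for 1043 of the higher and 1426 of the lower genes (7.45% and 10.2% of genes tested). Over all genes tested, called or not, 22.1% had both shNELFE libraries above both shCTL libraries and 23.2% had them below (45.3% together). Most changes were small, with a median absolute log2 fold change of 0.35 among the calls, and 58 genes rose (0.414%) and 136 fell (0.971%) at least 2-fold. A fit of the 8 libraries numbered 2, which estimates the same effect with 3 residual degrees of freedom, called 212 genes higher (1.43%) and 432 lower (2.92%), or 4.35% of genes tested, of which 640 were also among the 2817. Counts from it are given beside the groups below as the fit of 8 libraries. Wherever 1 library is said to be left out of it, that library is 1 of the 4 without HMBA. No library with HMBA was left out in turn. Counts of list members called in the fit of 4 are to be read beside the shares over all genes, 8.59% higher and 11.5% lower. Without the EPZ-5676 term, 3 genes were called higher and 27 lower. For leading genes named here, edgeR adjusted p was far larger in the fit of 8 libraries than in the fit of 4. In the fit of 8 it was 1.26e-06 for NELFE, 8.13e-06 for HSPA5, 9.20e-05 for NDRG1, 0.00138 for CDKN1A and 0.0109 for CENPF.

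**Figure D2:**
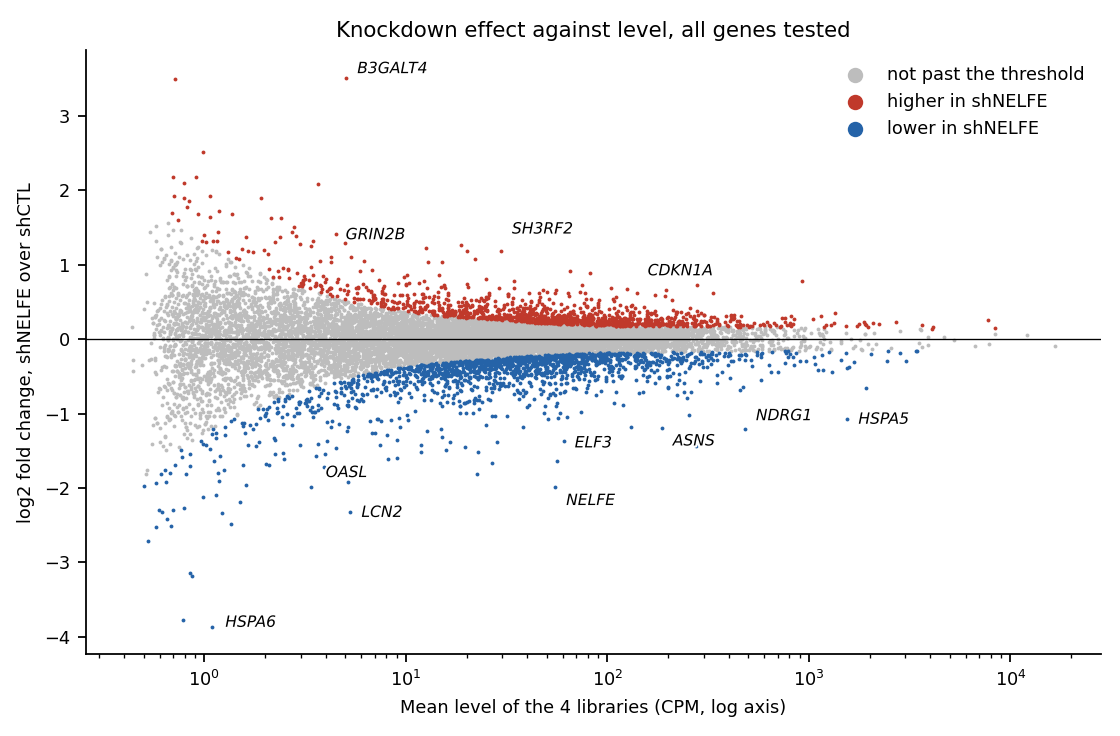
Log2 fold change of shNELFE over shCTL against the mean level of the 4 libraries (CPM, log axis) for 13999 genes, with called genes in red (higher) and blue (lower). B3GALT4 at the top and HSPA6 at the bottom mark the ends of the genes named here.

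Among the largest falls without overlap was that of LCN2, the lipocalin that binds bacterial siderophores, which had 8.68 CPM in shCTL DMSO and 8.999 in shCTL EPZ-5676, against 1.72 in shNELFE DMSO and 1.78 in shNELFE EPZ-5676 (log2 fold change -2.33, SE 0.22, edgeR adjusted p 5.34e-23). It was lower in each pair, with no overlap. FUT3, the Lewis fucosyltransferase, had 5.74 and 6.32 CPM in shCTL and 1.78 and 1.85 in shNELFE (log2 -1.72). OASL, an interferon-induced antiviral protein, had 11.4 and 13.2 CPM in shCTL and 3.89 and 4.11 in shNELFE (log2 -1.61). The shNELFE levels of these genes were close to each other under both compounds. Smaller numbers of counts lay behind the interleukin receptor antagonist gene IL1RN (log2 -2.49), the lactate dehydrogenase gene LDHD (-2.34), the tetraspanin-like gene TM4SF1 (-2.19), the noncoding RNA gene LINC00330 (-1.96), WNT7A (-1.69), the protease inhibitor gene SERPINA3 (-1.68) and the cytokine receptor gene IL20RB (-1.62). SULT1A3 (-1.99) has a near-identical copy, so its count is uncertain. Of these 11 genes, LCN2, FUT3, OASL, SULT1A3 and SERPINA3 were also called lower with HMBA, while IL1RN, LDHD, WNT7A and IL20RB did not pass there and TM4SF1 and LINC00330 were not tested. In the fit of 8 libraries all 11 passed.

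HSPA6, a heat-inducible chaperone of the Hsp70 family that is near silent without stress, showed the largest fall among the genes named. It had 56 summed counts in the shCTL libraries and 4 in the shNELFE libraries. Scaled by library size, the counts of the shCTL libraries exceeded those of the shNELFE libraries by a ratio of 15.5 (95% exact interval 5.72 to 58.8, counting error only; edgeR adjusted p 1.99e-08). A near-identical pseudogene, HSPA7, makes its count uncertain. The 150 bases before the HSPA6 start hold 1 heat shock element (GAA, TTC and GAA, each 2 bases apart), in capitals below, a word found in 0.487% of 27303 promoter windows of 300 bases, from 250 before to 50 after the start (RefSeq, GRCh38.p14, both strands). It is shown because HSPA6 had the largest fall. The stretch is chr1:161524390-161524539 on the plus strand, and the element reads in reverse.
HSPA6: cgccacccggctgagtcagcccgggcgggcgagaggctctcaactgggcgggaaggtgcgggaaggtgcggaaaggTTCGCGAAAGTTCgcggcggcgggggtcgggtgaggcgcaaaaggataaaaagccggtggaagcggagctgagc

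The heat shock chaperone list, in which HSPA6 was not placed, moved in both directions. Of 18 members tested, 6 rose and 4 fell (1 and 2 in the fit of 8 libraries), with a median log2 of 0.021. The small heat shock protein gene HSPB1 fell from 451 and 406 to 328 and 301 CPM (log2 -0.45), and the cochaperone gene BAG3 had 162 and 111 CPM in shCTL and 112 and 81.2 in shNELFE, with overlapping arms (log2 -0.50). DNAJB1 (log2 -0.34, with overlapping arms) and the regulator gene HSF1 (-0.20) were the other calls below 0. The mitochondrial chaperonin gene HSPE1 rose from 221 and 218 to 318 and 271 CPM (log2 0.42). The heat shock element was in 3 of 17 windows of the list, those of CHORDC1, DNAJA1 and HSPA8, of which HSPA8 alone was called (log2 0.16).

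B3GALT4 (ENSG00000235863, hg38 chromosome 6, 33277132 to 33284832, plus strand), which encodes a galactosyltransferase of ganglioside synthesis, showed the largest rise among the genes named. It had 0.646 CPM in shCTL DMSO and 0.967 in shCTL EPZ-5676, against 9.81 in shNELFE DMSO and 8.77 in shNELFE EPZ-5676. Both shCTL libraries were below 1 CPM and both shNELFE libraries above 8 (log2 fold change 3.52, SE 0.26, edgeR adjusted p 8.65e-38). The gene WDR46 overlaps it on the opposite strand and was at 74.02 and 88.2 CPM in shCTL and 79.6 and 81.9 in shNELFE (log2 -0.0013, adjusted p 0.994). With 1 library without HMBA left out of the fit of the 8 libraries numbered 2, the log2 of WDR46 ranged from -0.21 to 0.22. The adjacent genes RPS18 and PFDN6 did not pass either. Of the other genes near it, RING1 (log2 -0.31, adjusted p 0.0049), HSD17B8 (-0.49, 0.0144), SLC39A7 (-0.20, 0.0215) and TAPBP (-0.23, 0.0246) were called lower by edgeR, and none of these 4 passed in the fit of 8 libraries (adjusted p 0.132 to 0.281). B3GALT4 rose with HMBA too, by a log2 of 5.07 in 4 other libraries (edgeR adjusted p 5.83e-06). With HMBA alone and with both compounds, in libraries scaled apart, it had 0.212 and 0.365 CPM in shCTL, against 10.5 and 9.84 in shNELFE. Those shCTL levels are near the floor of detection, so the size of that log2 is uncertain.

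The other large rises were mostly of genes at a low level. GRIN2B, an NMDA receptor subunit, had 6.02 and 8.78 CPM in shCTL and 11.5 and 23.8 in shNELFE (log2 fold change 1.22, SE 0.14, edgeR adjusted p 7.63e-17). SH3RF2, an SH3-domain ubiquitin ligase, had 20.9 and 15.3 CPM in shCTL and 47.1 and 34.9 in shNELFE (log2 fold change 1.18, SE 0.10, edgeR adjusted p 5.71e-28). KRTAP2-3, a hair keratin-associated protein with close paralogs that make its count uncertain, had 12.6 and 11.8 CPM in shCTL and 32.2 and 23.8 in shNELFE (log2 1.19). In these 3 genes the shNELFE library lay above the shCTL library under both compounds. The dopamine receptor gene DRD1 rose from 0.932 and 0.669 to 3.12 and 2.88 CPM (log2 1.89), and NRG1, a ligand of ERBB receptors, from 1.36 and 2.16 to 4.08 and 4.38 (log2 1.27). The remaining rises were the presynaptic gene RIMS2 (log2 1.63), RIMBP3 (1.22), the phosphodiesterase gene PDE10A (1.51), the enamel protease gene MMP20 (1.39), the RNA-editing cofactor gene A1CF (1.38), the BAFF receptor gene TNFRSF13C (1.19) and the noncoding RNA genes APPAT (1.62) and GAS6-DT (1.37). The readthrough gene DUS4L-BCAP29 had 6.10 CPM in shCTL DMSO and 0 in shCTL EPZ-5676, against 6.37 in shNELFE DMSO and 7.40 in shNELFE EPZ-5676. Its rise (log2 1.29) rests on the 0 in shCTL EPZ-5676 and its count is uncertain, since its exons are shared with other genes. A1CF, RIMBP3, TNFRSF13C and DUS4L-BCAP29 did not pass in the fit of 8 libraries, with adjusted p of 0.0637, 0.106, 0.0884 and 0.277. Of the rises named in this paragraph, KRTAP2-3 alone was also called higher with HMBA (log2 1.85). DRD1, RIMS2, PDE10A and MMP20 were not tested there. The others did not pass, with GRIN2B at a log2 of 0.0042, A1CF at -0.80 and the rest above 0. With HMBA GRIN2B had 0.451 to 0.778 CPM, and NRG1, RIMBP3, GAS6-DT and A1CF had 0.365 to 1.70. At such low levels these log2 values are uncertain.

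Among lists with at least 10 members tested, the unfolded protein response had the highest share called. These genes encode chaperones and disulfide isomerases of the endoplasmic reticulum (ER) and are known to be induced by the factors ATF6, XBP1 and ATF4 when unfolded proteins build up there. Of 22 members tested, 17 fell and 0 rose, all 17 without overlap (12 and 0 in the fit of 8 libraries), and 21 had a log2 below 0. The median log2 was -0.43, against -8.05e-05 over all genes. HSPA5 (ENSG00000044574, hg38 chromosome 9, 125234853 to 125241330), the ER chaperone BiP, had 1865 CPM in shCTL DMSO and 2345 in shCTL EPZ-5676, against 954 in shNELFE DMSO and 1029 in shNELFE EPZ-5676 (log2 fold change -1.08, SE 0.060, edgeR adjusted p 1.56e-68). DNAJC3, its cochaperone and an inhibitor of the kinase PERK, had 91.5 CPM in shCTL DMSO and 105 in shCTL EPZ-5676, against 50.6 in shNELFE DMSO and 49.1 in shNELFE EPZ-5676 (log2 fold change -0.97, SE 0.076, edgeR adjusted p 8.02e-35). Both fell in each pair, and the shNELFE levels lay close together under DMSO and EPZ-5676. HYOU1, a nucleotide exchange factor for HSPA5, had 380.1 and 464 CPM in shCTL and 261 and 297 in shNELFE (log2 -0.59). XBP1, the transcription factor, had 86.9 and 82.2 CPM in shCTL and 54.03 and 52.95 in shNELFE (log2 -0.66). When any 1 library was left out of the fit of 8, between 6 and 8 members were called lower and 0 higher.

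Some promoters of this group are known to hold the ER stress element, CCAAT and CCACG with 9 bases between, to which NF-Y and ATF6 are known to bind. The word was found on either strand in 22 of 27303 promoter windows (0.0806%), from 250 bases before to 50 after the RefSeq start. It was in 7 of the 21 windows found for the list (33.3%), those of HSPA5, XBP1, CRELD2, HSP90B1, ERO1B, CALR and CANX. Of these, the first 5 fell and CALR and CANX did not pass (log2 -0.13 and -0.022). Over all genes tested, 14 windows held the word, of which 7 belonged to genes called lower and 0 to genes called higher. The 7 windows of the list are among those 14, and 5 of the 7 called lower are its members. Of all 10549 windows of genes tested, 1256 belonged to genes called lower. Within the list 5 of 7 holders fell, beside 17 of all 22 members, so holders did not fall more often. The 150 bases before the start of 4 of these genes are given below from RefSeq, GRCh38.p14, with the element in capitals. They were taken from the 5 members that hold the word and fell. The genes were chosen after their values were seen. HSPA5 (chr9:125241344-125241493) and XBP1 (chr22:28800570-28800719) lie on the minus strand, and CRELD2 (chr22:49918484-49918633) and HSP90B1 (chr12:103930260-103930409) on the plus strand, where the element reads in reverse.
HSPA5: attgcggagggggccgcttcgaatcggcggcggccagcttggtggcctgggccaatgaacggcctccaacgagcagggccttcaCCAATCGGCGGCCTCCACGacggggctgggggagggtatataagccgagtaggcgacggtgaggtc
XBP1: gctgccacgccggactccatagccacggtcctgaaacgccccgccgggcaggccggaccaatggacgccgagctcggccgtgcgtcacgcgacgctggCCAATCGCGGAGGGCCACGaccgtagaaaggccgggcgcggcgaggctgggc
CRELD2: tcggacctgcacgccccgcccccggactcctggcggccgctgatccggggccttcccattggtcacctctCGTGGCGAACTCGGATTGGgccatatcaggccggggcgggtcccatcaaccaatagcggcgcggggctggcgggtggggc
HSP90B1: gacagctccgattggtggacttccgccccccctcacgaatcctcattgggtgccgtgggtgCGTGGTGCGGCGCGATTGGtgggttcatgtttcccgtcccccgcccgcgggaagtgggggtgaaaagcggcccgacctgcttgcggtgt
CRELD2, a secreted ER stress protein, had 27.4 and 37.3 CPM in shCTL and 21.7 and 23.8 in shNELFE (log2 -0.50). HSP90B1, the ER paralog of Hsp90, had 1669 and 1894 CPM in shCTL and 1454 and 1284 in shNELFE (log2 -0.38). A match of letters is a description and says nothing of what was bound in these cells.

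Genes of the ATF4 amino acid response, which ATF4 is known to induce when amino acids are short, fell as well. Of 27 tested, 14 fell, all without overlap, and 1 rose (8 and 0 in the fit of 8 libraries), with a median log2 of -0.33. ASNS (ENSG00000070669, hg38 chromosome 7, 97852118 to 97872542), asparagine synthetase, had 259 CPM in shCTL DMSO and 258 in shCTL EPZ-5676, against 114 in shNELFE DMSO and 112 in shNELFE EPZ-5676 (log2 fold change -1.19, SE 0.070, edgeR adjusted p 4.28e-61). PCK2, the mitochondrial phosphoenolpyruvate carboxykinase, had 50.2 CPM in shCTL DMSO and 55.9 in shCTL EPZ-5676, against 23.1 in shNELFE DMSO and 23.8 in shNELFE EPZ-5676 (log2 fold change -1.18, SE 0.092, edgeR adjusted p 3.63e-34). Both genes were lower in each pair, with near-equal levels under DMSO and EPZ-5676. SLC7A11, the cystine transporter, had 92.8 and 62.5 CPM in shCTL and 42.5 and 34.9 in shNELFE (log2 -0.99). DDIT4, an inhibitor of mTORC1, had 116 and 113 CPM in shCTL and 90.9 and 53.6 in shNELFE (log2 -0.69), lower mostly in the EPZ-5676 pair. The member that rose was STC2 (log2 0.22), whose arms overlapped and whose value without shCTL DMSO was -0.0041. With any 1 library left out of the fit of 8, between 3 and 5 members were called lower.

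Of 34 glycolysis and hypoxia genes, 15 fell and 3 rose (6 and 0 in the fit of 8 libraries), with a median log2 of -0.18. NDRG1, a hypoxia and stress gene, had 636 CPM in shCTL DMSO and 705 in shCTL EPZ-5676, against 285 in shNELFE DMSO and 294 in shNELFE EPZ-5676 (log2 fold change -1.21, SE 0.065, edgeR adjusted p 2.13e-73). SLC2A3, a glucose transporter, had 13.1 and 21.3 CPM in shCTL and 4.78 and 8.08 in shNELFE (log2 -1.42). Both lay lower in shNELFE without overlap. ALDOC, an aldolase, had 66.1 and 78.8 CPM in shCTL and 37.7 and 39.9 in shNELFE (log2 -0.90), and P4HA1, a collagen prolyl hydroxylase subunit, 74.9 and 89.7 CPM in shCTL and 57.2 and 47.1 in shNELFE (log2 -0.66). The 3 that rose were the glycolytic enzyme genes TPI1 (log2 0.28), PKM (0.23) and PFKM (0.18).

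Of 34 genes of cholesterol and fatty acid synthesis, 13 fell and 4 rose (6 and 1 in the fit of 8 libraries), with a median log2 of -0.15. STARD4, which carries cholesterol to the ER, had 47.4 and 45.1 CPM in shCTL and 30.6 and 22.5 in shNELFE (log2 -0.80). SREBF2, the master factor of the sterol pathway, had 252 and 226 CPM in shCTL and 171 and 169 in shNELFE (log2 -0.49). Both genes lay lower in shNELFE under both compounds. The members that rose were ACLY (log2 0.33), EBP (0.33), TM7SF2 (0.31) and FASN (0.19), of which the first makes cytosolic acetyl-CoA and FASN fatty acids. With any 1 library left out of the fit of 8, between 1 and 5 members of this list were called lower, and between 4 and 6 of the glycolysis and hypoxia list.

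Epithelial junction and keratin genes fell in 17 of 28 members tested, all without overlap, and 0 rose (7 and 0 in the fit of 8 libraries). The median log2 was -0.29. KRT80, a keratin, had 144 and 161 CPM in shCTL and 58.3 and 114 in shNELFE (log2 -0.89), with the larger fall under DMSO. OCLN, the tight junction protein occludin, had 73.02 and 54.7 CPM in shCTL and 44.7 and 29.6 in shNELFE (log2 -0.79). ELF3, an epithelial transcription factor outside this list that is named for its difference with HMBA, had 90.1 CPM in shCTL DMSO and 84.3 in shCTL EPZ-5676, against 38.8 in shNELFE DMSO and 29.1 in shNELFE EPZ-5676 (log2 fold change -1.37, SE 0.081, edgeR adjusted p 2.66e-59). The summed level of 8 colon epithelial markers was 6173 and 6627 CPM in shCTL and 4966 and 5592 in shNELFE, while EPCAM did not pass (log2 0.041). Of 10 mesenchymal genes, 0 rose and 2 fell, S100A4 (log2 -0.66) and ITGA5 (-0.31), of which S100A4 alone passed in the fit of 8 libraries, and the mesenchymal genes VIM (log2 0.51, adjusted p 0.0945) and ZEB1 (1.04, 0.0639) did not pass. The part of the lower epithelial marker sum in this result was not tested. With any 1 library left out of the fit of 8, between 2 and 5 epithelial members were called lower.

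Of 37 interferon-stimulated genes, 13 fell and 1 rose (4 and 1 in the fit of 8 libraries), with a median log2 of -0.30. Besides OASL, HLA-F, a nonclassical MHC class I gene, had 9.54 and 13.5 CPM in shCTL and 5.29 and 5.48 in shNELFE (log2 -1.08). The ubiquitin ligase gene DTX3L had 34.2 and 30.3 CPM in shCTL and 21.98 and 18.9 in shNELFE (log2 -0.66), and its partner PARP9, which is transcribed away from it, 25.3 and 24.8 CPM in shCTL and 17.2 and 16.2 in shNELFE (log2 -0.58). Each of these lay lower in shNELFE without overlap. The member that rose was the helicase gene DDX60 (log2 0.60). The interferon response element, GAAA and GAAA with 2 bases between, was in 19 of 30 windows of the list (63.3%) and in 3.65% of all windows. Of those 19, 5 fell and 1 rose, beside 13 and 1 of all 37 members, so holders did not fall more often than the list. With any 1 library left out of the fit of 8, 1 or 2 members were called lower.

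Cell cycle genes rose by small amounts. Of 40 genes of G2/M and mitosis, 18 rose, all without overlap, and 0 fell, with a median log2 of 0.17 (2 and 0 in the fit of 8 libraries). CENPF, a kinetochore protein, had 187 CPM in shCTL DMSO and 178 in shCTL EPZ-5676, against 240.0 in shNELFE DMSO and 237 in shNELFE EPZ-5676 (log2 fold change 0.39, SE 0.068, edgeR adjusted p 5.44e-07). KIF20A, a kinesin of cytokinesis, had 76.3 and 85.3 CPM in shCTL and 97.9 and 111 in shNELFE (log2 0.37). BUB1B, a spindle checkpoint kinase, had 88.7 and 92.96 CPM in shCTL and 113 and 114 in shNELFE (log2 0.33), and FOXM1, a mitotic transcription factor, 68.3 and 80.4 CPM in shCTL and 85.9 and 99.6 in shNELFE (log2 0.32). In all 4 genes each shNELFE library exceeded each shCTL library. Of 46 genes of G1/S and DNA replication, 17 rose and 0 fell, with a median log2 of 0.16 (3 and 0 in the fit of 8 libraries). TYMS, thymidylate synthase, had 159 and 149.6 CPM in shCTL and 204 and 183 in shNELFE (log2 0.33), and CDC45, a subunit of the replicative helicase, 33.4 and 34.95 CPM in shCTL and 46.6 and 44.5 in shNELFE (log2 0.41). With any 1 library left out of the fit of 8, 0 G2/M members and 0 or 1 G1/S members were called.

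Promoters of mitotic genes often hold the CHR word TTTGAA, through which the MuvB complex is known to act. It was in 22 of 34 windows of the G2/M list (64.7%), in 9.32% of the 10549 windows of genes tested and in 15.4% of all windows, on either strand. Of those 22 genes, 9 rose and 0 fell, beside 18 and 0 of all 40 members, so holders did not rise more often than the list. Among genes called higher 13.7% of windows held it, and among genes called lower 6.53%. It is shown in capitals for BUB1B (chr15:40160919-40161068, plus strand) and PRC1 (chr15:90994536-90994685, minus strand), a spindle midzone protein with a log2 of 0.22, both chosen after their values were seen and with the word close to the start.
BUB1B: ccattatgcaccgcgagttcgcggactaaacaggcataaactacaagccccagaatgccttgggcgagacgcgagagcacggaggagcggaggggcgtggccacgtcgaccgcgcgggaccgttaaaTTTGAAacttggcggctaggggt
PRC1: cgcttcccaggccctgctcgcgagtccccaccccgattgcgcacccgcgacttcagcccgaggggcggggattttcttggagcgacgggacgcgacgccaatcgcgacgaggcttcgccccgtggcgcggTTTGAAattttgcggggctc

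Of 36 genes of homologous recombination and DNA damage repair, 13 rose and 0 fell (1 and 0 in the fit of 8 libraries), with RAD51C at 32.6 and 33.8 CPM in shCTL and 45.9 and 42.95 in shNELFE (log2 0.42) and RAD54B at 14.4 and 15.5 CPM in shCTL and 22.7 and 19.8 in shNELFE (log2 0.50). Of 29 p53 targets, 7 rose and 0 fell (2 and 0 in the fit of 8 libraries). CDKN1A, the cyclin-dependent kinase inhibitor p21, had 126 CPM in shCTL DMSO and 94.7 in shCTL EPZ-5676, against 187 in shNELFE DMSO and 151 in shNELFE EPZ-5676 (log2 fold change 0.62, SE 0.070, edgeR adjusted p 9.55e-17). BTG2, an antiproliferative gene, had 6.60 and 6.99 CPM in shCTL and 12.2 and 10.8 in shNELFE (log2 0.76). Genes that promote and genes that restrain the cell cycle were thus both among those higher in shNELFE.

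**Figure D3:**
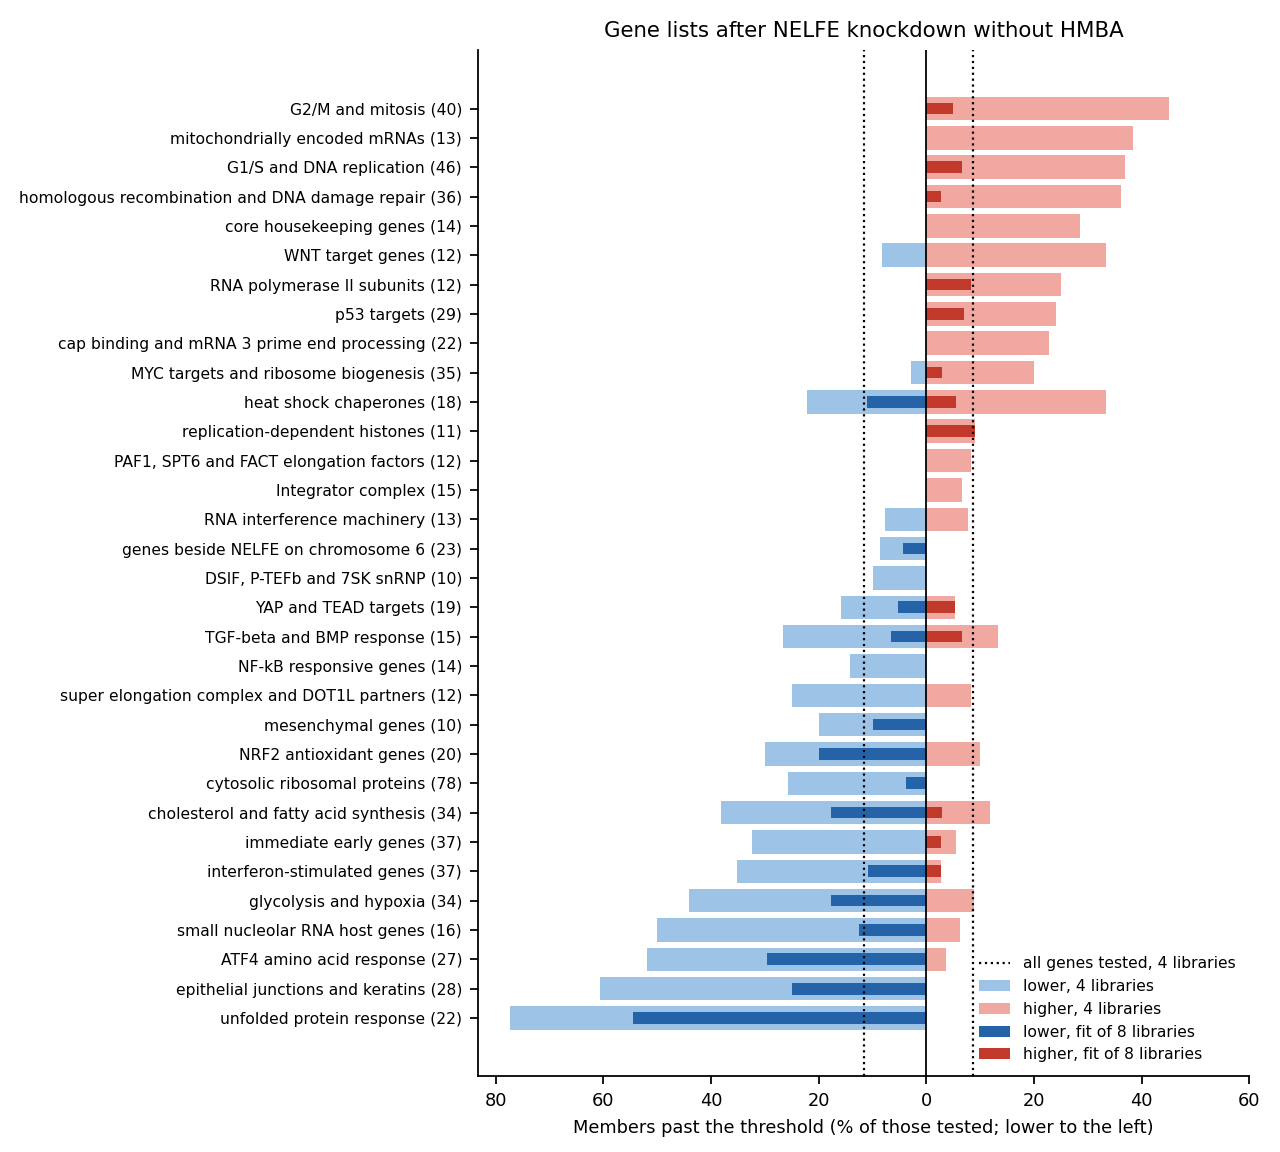
Share of tested members past the threshold in each gene list with at least 10 members tested (number in brackets), lower to the left and higher to the right; wide bars are the fit of 4 libraries, narrow bars the fit of 8, and dotted lines the shares over all genes in the fit of 4 (11.5% lower and 8.59% higher). The unfolded protein response lies farthest to the left, with 17 of 22 members lower, and the G2/M list farthest to the right, with 18 of 40 higher.

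Immediate early genes are switched on by signals with no need for newly made protein and are known for paused polymerase. Of 37 tested, 12 fell and 2 rose, while in the fit of 8 libraries 0 fell and 1 rose. EGR1 had 52.2 CPM in shCTL DMSO and 34.2 in shCTL EPZ-5676, against 27.6 in shNELFE DMSO and 33.1 in shNELFE EPZ-5676 (log2 -0.50), and JUN 28.8 CPM in shCTL DMSO and 16.7 in shCTL EPZ-5676, against 16.3 in shNELFE DMSO and 13.6 in shNELFE EPZ-5676 (log2 -0.58). In the fit of 8 their log2 values were -0.52 and -0.59, with adjusted p of 0.131 and 0.110, so the calls were lost there and the sizes were not. In both the library shCTL DMSO was the highest and the other 3 lay closer together. The members that rose were BTG2 and DUSP6, a phosphatase of ERK, with 77.6 and 53.99 CPM in shCTL and 107 and 73.02 in shNELFE, overlapping arms and a log2 of 0.45.

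Of 78 cytosolic ribosomal protein genes, 20 fell and 0 rose (3 and 0 in the fit of 8 libraries), with a median log2 of -0.10. RPL12 had 1699 and 1778 CPM in shCTL and 1294 and 1375 in shNELFE (log2 -0.38) and RPLP1 929 and 956 CPM in shCTL and 737 and 748 in shNELFE (log2 -0.34). Of 16 host genes of small nucleolar RNAs, 8 fell and 1, SNHG3 (log2 0.24), rose (2 and 0 in the fit of 8 libraries), with SNHG16 at 157 and 222 CPM in shCTL and 130.5 and 134 in shNELFE (log2 -0.50) and ZFAS1 at 104 and 116 CPM in shCTL and 84.99 and 80.8 in shNELFE (log2 -0.41). MYC targets of ribosome biogenesis moved the other way, with 7 of 35 higher and 1, NOB1 (log2 -0.22), lower (1 and 0 in the fit of 8 libraries). Among 20 NRF2 antioxidant genes, 6 fell and 2, among them ABCC2, rose (4 lower and 0 higher in the fit of 8 libraries), with FTL, the ferritin light chain, at 1197 and 1324 CPM in shCTL and 883 and 1005 in shNELFE (log2 -0.42) and HMOX1, heme oxygenase, at 22.4 and 17.6 CPM in shCTL and 13 and 12.6 in shNELFE (log2 -0.64).

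For the next lists, the shares over all genes tested were 11.5% lower and 8.59% higher. The falls in the DSIF list and beside NELFE were near or below that share. So were the rises in the Integrator and PAF1 groups. Of 10 genes of DSIF, P-TEFb and the 7SK particle, 1 fell, the P-TEFb inhibitor gene HEXIM1, from 90.9 and 86.5 to 75.2 and 73.8 CPM (log2 -0.25). Of 12 genes of the super elongation complex and DOT1L partners, 3 fell, AFF1 (log2 -0.28), AFF4 (-0.25, with overlapping arms) and ELL2 (-0.25). The 1 that rose was DOT1L, the target of EPZ-5676 (0.21). Of 12 elongation factors of the PAF1, SPT6 and FACT group, SUPT16H rose (log2 0.27), and of 15 Integrator subunits INTS13 rose with overlapping arms (0.22; -7.34e-04 without shCTL DMSO). Of 22 genes of cap binding and 3′ end processing, 5 rose, CSTF3 (log2 0.53), CPSF3 (0.29), NCBP1 (0.24), XRN2 (0.23) and FIP1L1 (0.20). Of 12 RNA polymerase II subunits, POLR2L (0.37), POLR2G (0.21) and POLR2B (0.19) rose. In the fit of 8 libraries POLR2L alone of all these passed. Of 23 genes beside NELFE on chromosome 6, 2 fell, CFB and RNF5 (log2 -0.40), of which CFB alone passed in the fit of 8 libraries. CFB, complement factor B, ends next to NELFE on the opposite strand. It had 44 summed counts in shCTL and 11 in shNELFE, a ratio of 4.42 (95% exact interval 2.25 to 9.50). The strand setting of the counts is not given, so its reads cannot be told apart from those of NELFE where transcripts overlap.

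The lists in this paragraph are small and stand beside the same shares, 11.5% lower and 8.59% higher over all genes tested. Falls in the NF-kB list, rises in the histone list and both counts in the RNA interference list were near these shares. Of 12 WNT target genes, CCND1 (log2 0.27), RNF43 (0.31), BMP4 (0.20) and AXIN2 (0.52) rose and MYC (-0.24) fell, with overlapping arms for RNF43, BMP4 and AXIN2. Without shNELFE EPZ-5676 BMP4 was at -0.039. Of 15 genes of the TGF-beta and BMP response, 4 fell, among them PMEPA1 (-0.83), SKIL (-0.38) and ID1 (-0.28), and TGFBR2 (0.62) and BMP4 rose. The arms did not overlap for 2 of the 4 that fell. Of 19 YAP and TEAD targets, NT5E (0.63) rose and IGFBP3 (-1.41), GADD45B (-0.34) and CCN1 (-0.25) fell. The arms overlapped for IGFBP3 and CCN1, and CCN1 was at 0.29 without shCTL DMSO. Of 9 genes of the EGF receptor family and its ligands, NRG1, EREG (0.28) and EGFR (0.21) rose and ERBB2 (-0.28) fell, with overlapping arms for EREG. All 5 metallothionein genes had a log2 below 0 and 4 fell, MT1F (-1.05), MT1X (-0.57), MT1E (-0.33) and MT2A (-0.17), with overlapping arms for MT1E and MT2A. Of 14 NF-kB responsive genes, BCL3 (-0.54) and TNFAIP2 (-0.22) fell. Of 11 replication-dependent histone genes, H2AC6 rose (1.10). Of 13 mitochondrially encoded mRNAs, 5 rose, from 0.15 for MT-ND4, through MT-ND1, MT-ND2 and MT-ND4L, to 0.54 for MT-ND6. The arms did not overlap for 3 of these 5. Of 13 genes of the RNA interference machinery, which an shRNA needs, AGO4 (-0.34) fell with overlapping arms and PRKRA (0.24) rose. Of 14 core housekeeping genes, 4 rose, among them SDHA (0.25), TUBA1B (0.21) and TUBB (0.18). COL1A1, the fibroblast marker tested, fell from 23.4 and 33.6 to 10.8 and 18.2 CPM, and CD68, the leukocyte marker tested and a lysosomal gene, from 22.8 and 18.4 to 12.4 and 10.5 CPM. In the fit of 8 libraries COL1A1 and CD68 both passed. There 1 gene rose and 1 fell in the TGF-beta and BMP list and in the YAP and TEAD list, 1 rose in the EGF receptor and histone lists, 2 metallothionein genes fell, and 0 were called in the WNT, NF-kB, mitochondrial, RNA interference and housekeeping lists. Of 3 endothelial and 2 erythroid markers tested, 0 were called.

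Genes called higher were longer than genes called lower, with a median annotated length of 40.9 kb for 1198 genes against 25.8 kb for 1613, and 30.2 kb over all genes tested. Their median levels were 53.8 and 34.8 CPM, against 24.6 over all. Protein-coding genes made up 91.1% of those higher, 97.3% of those lower and 88.6% of all. These are descriptions over genes, which are not independent replicates.

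The knockdown effect could be set side by side in the DMSO pair and the EPZ-5676 pair, with no test, since the product term would use up all 4 libraries. Of the 2817 calls, 2796 had the same direction in both pairs, which the calling favours, against 9672 of all 13999 genes (69.1%). Pearson's r of the pair differences was 0.398 across all genes tested and 0.671 across the 9551 genes with a mean of at least 10 CPM. NELFE differed by -2.07 in the DMSO pair and -1.91 in the EPZ-5676 pair, HSPA5 by -0.97 and -1.19, and ASNS by -1.18 and -1.20, all as log2 of CPM. KRT80 and DDIT4 were less even, with -1.30 and -0.50 for KRT80 and -0.35 and -1.07 for DDIT4.

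**Figure D4:**
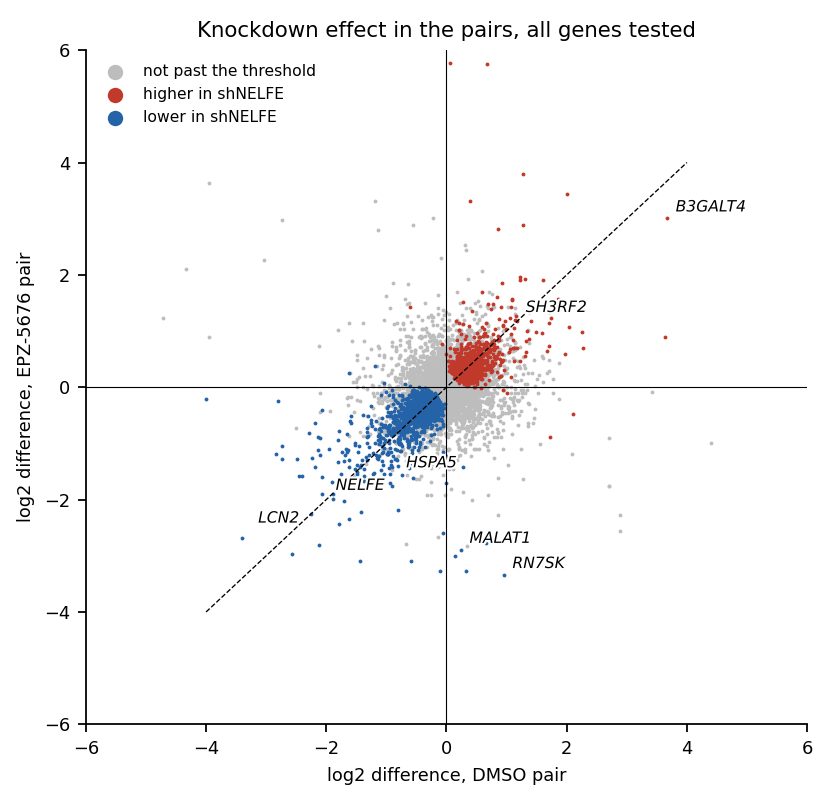
Log2 difference of shNELFE from shCTL in the EPZ-5676 pair against that in the DMSO pair for 13999 genes, with called genes in red (higher) and blue (lower) and equal values on the dashed line. NELFE, LCN2 and HSPA5 lie near the dashed line, while MALAT1 and RN7SK are low in the EPZ-5676 pair alone.

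The same knockdown was measured with HMBA in 4 other libraries numbered 2, which share no control with those described here. There 834 genes were higher (5.94%) and 1076 lower (7.66%) of 14049 tested. Of the genes called without HMBA and tested with it, 2403 of 2760 (87.1%) had the same sign, against 6636 of 10562 genes not called (62.8%). In both conditions 967 genes were called, 937 in one direction and 30 in opposite directions. Those 937 were 33.3% of the calls without HMBA and 49.1% of the calls with it. The log2 fold change of NELFE with HMBA was -2.12. The unfolded protein response had 10 members lower and 1 higher with HMBA, the ATF4 list 10 lower and 3 higher, the epithelial list 10 and 1, and the cholesterol list 13 and 3. Of the cell cycle lists, G1/S had 19 higher and 0 lower and G2/M 4 higher and 1 lower.

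The difference between the effects with and without HMBA passed for 36 of 14808 genes (0.243%), 34 of them with a more positive effect under HMBA (0.230%) and 2, TANK and a gene known by a clone name, with a more negative one (0.0135%). Without HMBA, ADM, a vasodilator peptide induced by hypoxia, had 83.2 CPM in shCTL DMSO and 102 in shCTL EPZ-5676. In shNELFE it had 74.9 CPM under DMSO and 77.1 under EPZ-5676. With HMBA it had 16.8 and 16 CPM in shCTL against 76.2 and 71.8 in shNELFE. Levels with HMBA were scaled apart from those without it, so they compare the arms within a condition. ARC, an immediate early gene of neurons, was at 7.75 and 6.32 CPM in shCTL and 6.69 and 6.71 in shNELFE without HMBA, a difference that did not pass (log2 -0.070, adjusted p 0.836), and rose with it (log2 2.50). Both genes were thus higher in shNELFE with HMBA only, and the difference in effect was 2.46 for ADM (SE 0.16, edgeR adjusted p 3.82e-06) and 2.58 for ARC (SE 0.19, 1.20e-05). ELF3 went from -1.37 to 0.040 (adjusted p of the difference 4.18e-04), MYC from -0.24 to 0.98 (0.00150) and DUSP2, a nuclear phosphatase, from -0.31 to 1.46 (0.00150). Immediate early genes as a list had 15 members higher and 4 lower with HMBA, and 6 of 37 passed for the difference. The fall of HSPA5 was smaller with HMBA, at -0.44 against -1.08 (difference 0.64, adjusted p 0.0221). For ASNS, LCN2, NDRG1, B3GALT4 and CDKN1A the difference did not pass, with adjusted p of 0.493, 0.919, 0.450, 0.454 and 0.286.

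**Figure D5:**
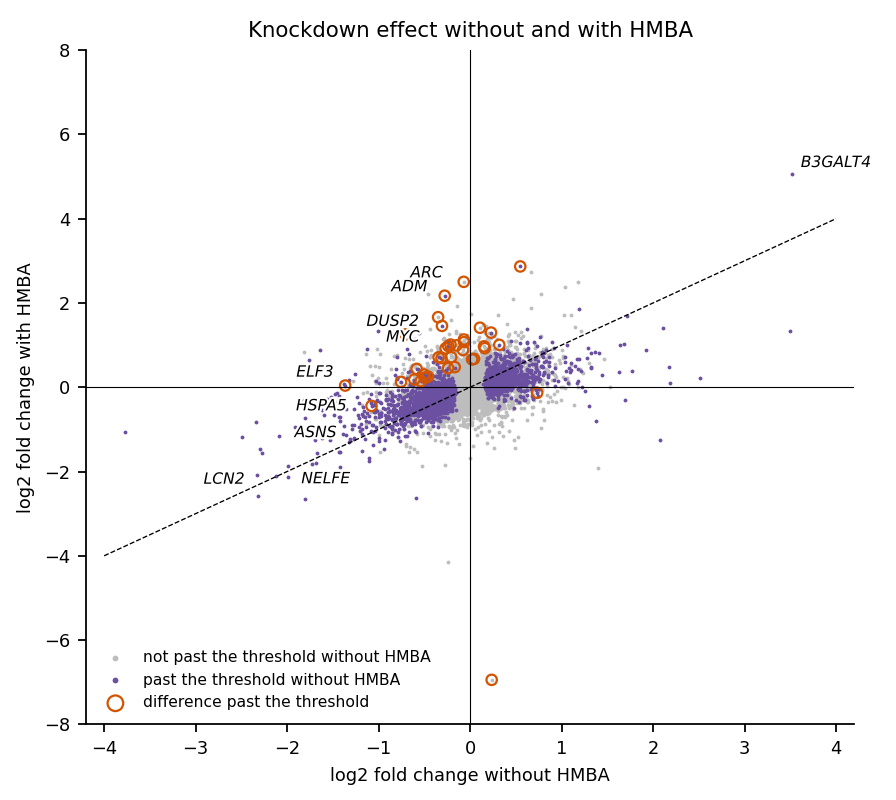
Log2 fold change of shNELFE over shCTL with HMBA against that without HMBA for 13322 genes tested in both, with equal values on the dashed line, genes called without HMBA in purple and genes whose difference passed in orange rings. B3GALT4, NELFE, LCN2 and ASNS lie on the same side of 0 on both axes, while ADM, ARC, MYC and DUSP2 are above 0 with HMBA only.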

How the data were processed

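RNA of HCT116 cells was selected with oligo(dT) beads and made into stranded libraries, per the labels' protocols. The deposited file holds whole-number read counts per gene for 16 libraries, and the submitters' processing notes name STAR 2.4.0b, Cufflinks 2.1.1, HTSeq 0.6.1p1, edgeR and hg38. Annotation release and strand setting of the counting: not given in the sources used here. Gene positions were read from GENCODE release 29 on GRCh38 (hg38), found for 58503 of 60676 genes, and promoter windows from RefSeq matched 10549 of 13983 symbols tested.

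The 4 libraries were grouped by their labels. Counts were filtered with filterByExpr and scaled with TMM, and edgeR 4.0.16 (R 4.3.3) fitted a quasi-likelihood model with terms for EPZ-5676 and shRNA. The threshold was a Benjamini-Hochberg adjusted p of 0.05. CPM values use the scaled library sizes, and pair differences add a prior count of 2. Levels with HMBA were scaled among the 4 libraries with HMBA, apart from those without it. The difference between the effects with and without HMBA was tested in the 8 libraries numbered 2. DESeq2 1.42.0, limma-voom (limma 3.58.1), other scalings and filters, and left-out libraries were alternatives. The procedure was run on simulated counts in which every gene had the same coefficient of variation. That run cannot show how the procedure does where genes or libraries differ in spread.

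The genes named were NELF subunits, the 15 largest rises and falls without overlap of the arms and with at least 2 CPM in the higher arm, up to 4 members per list by smallest p and the 5 smallest p of the HMBA difference. Other genes, named where few were called or as neighbours or markers, were chosen after their values were seen. A few genes that the rule names are not reported here. The libraries and the 39 gene lists were chosen with earlier results of these data known. The libraries numbered 1 were left out of the comparison by the rule that chose the libraries, and enter only the alternatives with both replicate numbers.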

Additional observations from a re-analysis of the deposited data

Results flagged for a closer look

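For 7 genes named here the effect of the knockdown with HMBA differed from that without HMBA in the test of the difference itself (edgeR, 8 libraries numbered 2, Benjamini-Hochberg adjusted). The differences, with HMBA minus without, on the log2 scale, were 2.58 for ARC (adjusted p 1.20e-05), 2.46 for ADM (3.82e-06), 1.77 for DUSP2 (0.00150), 1.41 for ELF3 (4.18e-04), 1.22 for MYC (0.00150), 1.06 for GADD45B (0.00762) and 0.64 for HSPA5 (0.0221). All 7 were more positive with HMBA. DUSP2 had 26.7 CPM in shCTL DMSO and 26.6 in shCTL EPZ-5676, against 19.2 in shNELFE DMSO and 24.04 in shNELFE EPZ-5676 without HMBA. With HMBA, in libraries scaled apart, it had 7.63 and 6.33 CPM in shCTL against 19.1 and 19.04 in shNELFE.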

How the results depend on the processing

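With 1 library per group, the number of calls depended on how the spread was estimated. Against 1202 genes higher and 1615 lower (2817 in all), DESeq2 called 152 and 327 (479 in all), the fit of 8 libraries 212 and 432 (644), and the fit without the EPZ-5676 term 3 and 27 (30). The share of calls that were higher was 42.7% in the fit reported, 31.7% with DESeq2, 32.9% in the fit of 8 libraries and 10% without the EPZ-5676 term. Leaving out each of the 4 libraries in turn from the fit of 8 gave 174 to 313 calls, 46 to 77 higher and 122 to 236 lower. The lowest total was without shNELFE DMSO and the highest without shNELFE EPZ-5676, and a lone library of an arm is then assumed to vary like the others. RLE scaling, unscaled totals, no filter on low counts and limma-voom, and 2 settings chosen after seeing the data (adjusted deviances and robust moderation), kept the total within 1.5 times. For the difference with HMBA, 159 genes passed without the filter and 58 with DESeq2, against 36. The cause was not tested.

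With both replicate numbers, 0 genes were called by edgeR with the replicate number as a block (161 at an unadjusted p under 0.05) and 0 without the block (11). Both fits take in the libraries numbered 1, whose profile was judged not to match their labels. Of the 152 genes named, 28 had the opposite sign with the replicate block: VIM -3.51, PKM -0.24, ALDOC 0.25, PDE10A -1.08, STC2 -0.21, CANX 0.0049, NT5E -1.25, DDX60 -0.34, DUSP6 -0.38, EGFR -1.82, ZEB1 -1.65, BAG3 0.23, NRG1 -2.27, DUSP2 0.31, TNFRSF13C -0.57, TGFBR2 -0.20, DDIT4 0.21, AXIN2 -0.34, TYMS -0.055, POLR2L -0.14, CALR 0.082, NELFA 0.065, S100A4 0.97, KRTAP2-3 -1.60, SNHG3 -0.082, GAS6-DT -0.69, GRIN2B -1.21 and RIMBP3 -0.17 (log2). Without the block 26 did: VIM -3.92, PKM -0.32, BCL3 0.28, XBP1 1.12, HSPB1 0.068, STC2 -0.57, EGFR -0.45, ZEB1 -0.54, BAG3 0.41, NRG1 -1.10, DUSP2 0.22, TNFRSF13C -0.59, ELF3 0.085, LDHD 1.01, AXIN2 -0.074, RIMS2 -0.22, TYMS -0.043, POLR2L -0.25, CALR 0.085, NELFA 0.079, TUBB -0.027, MT-ND6 -0.035, RNF5 0.043, SNHG3 -0.013, SULT1A3 0.44 and RIMBP3 -1.08. Over the fits that left out 1 library each, the sign was not the same throughout for INTS13 (-7.34e-04 to 0.45), STC2 (-0.0041 to 0.48), EPCAM (-0.040 to 0.13), BMP4 (-0.039 to 0.42), CANX (-0.079 to 0.041), CCN1 (-0.69 to 0.29), NELFA (-0.10 to 0.011), ARC (-0.16 to 0.035), WDR46 (-0.21 to 0.22), MALAT1 (-2.92 to 0.27) and RN7SK (-3.54 to 1.12). Without shCTL EPZ-5676, RN7SK and MALAT1 had the upper of these values. WDR46, near 0 in the fit reported, was 4.06e-05 with RLE scaling, 5.50e-04 with DESeq2 and 0.0039 with unscaled totals. No other gene named changed sign under the planned settings. In the fit of 8 libraries 84 of the 152 genes kept their side of the threshold and 68 did not pass, all with the same sign.

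Depth limits genes near the floor of 0.190 to 0.223 CPM, such as HSPA6 and CFB, for which intervals cover counting error only.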
